A study of Rattus norvegicus with 36 samples.

Results

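The 8 genes described here carry lipid into muscle, hold it there or set which fuel the mitochondria burn: Lpl, Cd36, Fabp3, Fabp4, Plin2, Ucp2, Ucp3 and Pdk4. They were chosen by name, with earlier results of these data known. Their members were all probe sets to which the platform annotation gives 1 of these symbols and no other. That rule found 14 probe sets among the 8740 that are not controls, and all 14 were among the 6707 that could be tested. Plin2, Cd36, Ucp2 and Ucp3 had 2 probe sets each, Lpl had 3, and Fabp3, Fabp4 and Pdk4 had 1 each. A further 5 probe sets list Cd36 beside another symbol and were not named.

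Lipoprotein lipase (Lpl) frees fatty acids from circulating triglyceride at the capillary wall, and CD36 takes them up at the fibre surface. Inside the fibre they are bound by fatty acid binding proteins, Fabp3 in muscle and heart and Fabp4 mainly in adipocytes, macrophages and capillary endothelium, and any surplus is kept in droplets coated by perilipin 2 (Plin2). Pyruvate dehydrogenase kinase 4 (Pdk4) switches off the pyruvate dehydrogenase complex inside mitochondria, which holds back the oxidation of glucose and favours that of fatty acids, and the uncoupling proteins Ucp2 and Ucp3 are inner membrane carriers whose transcripts follow fatty acid supply. Several of these genes are textbook targets of the peroxisome proliferator-activated receptors, nuclear receptors that bind fatty acids.

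The promoters of Plin2 and Ucp2 are shown because their transcripts passed a test below. Ucp3 is added since it stands beside Ucp2 on the same chromosome and codes for the related carrier. The sequences are those of RefSeq on GRCr8, the 250 bases before each annotated start, 5′ to 3′ on the gene's strand, and capitals mark the motifs searched. Plin2 lies at chr5:106229019-106229268 on the minus strand, Ucp2 at chr1:164251123-164251372 on the plus strand and Ucp3 at chr1:164227660-164227909 on the plus strand.
Plin2: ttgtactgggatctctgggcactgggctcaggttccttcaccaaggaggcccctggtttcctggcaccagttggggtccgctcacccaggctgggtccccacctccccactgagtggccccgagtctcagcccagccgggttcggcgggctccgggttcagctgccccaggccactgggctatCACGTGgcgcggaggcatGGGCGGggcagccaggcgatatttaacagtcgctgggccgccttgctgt
Ucp2: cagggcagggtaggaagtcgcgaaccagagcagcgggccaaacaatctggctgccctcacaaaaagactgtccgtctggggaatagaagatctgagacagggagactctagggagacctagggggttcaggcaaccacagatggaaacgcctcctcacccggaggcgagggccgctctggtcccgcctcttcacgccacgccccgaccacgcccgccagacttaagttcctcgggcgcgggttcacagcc
Ucp3: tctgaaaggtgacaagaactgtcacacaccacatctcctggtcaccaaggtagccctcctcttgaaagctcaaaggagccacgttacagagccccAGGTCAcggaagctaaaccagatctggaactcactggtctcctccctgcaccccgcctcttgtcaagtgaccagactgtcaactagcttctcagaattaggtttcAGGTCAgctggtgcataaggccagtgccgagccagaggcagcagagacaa
The table held 6 of the 8 genes, without Lpl and Fabp4, and a second start for Plin2. Motifs were searched on both strands as AGGTCA, the hexamer that nuclear receptors bind, its direct repeat (AGGTCA followed by 1 base of any kind and again that hexamer), the TATA box TATAAA, the GC box GGGCGG, the CCAAT box and the E box CACGTG. Ucp3 was the only 1 of the 6 genes with AGGTCA, at 155 and 50 bases before the start, and 14.1% of all 33469 promoters hold that hexamer. None of the 6 held the direct repeat, which 0.0508% of promoters hold. Plin2 held CACGTG at 67 and GGGCGG at 49 bases before the start, motifs found in 5.59% and 30.5% of promoters. Ucp2 held none of those searched, TATAAA (12.9% of promoters) and CCAAT (34%) included.

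RNA of rat skeletal muscle, labelled only "ta", was measured on 36 one-colour arrays after an acute bout of resistance exercise. Muscle taken 1 h after resisted contractions gave 4 arrays of total RNA and 4 of polysomal RNA, the RNA loaded on ribosomes, while the 6 h groups hold 8 arrays each. Whether both fractions came from the same muscles is not given. Control muscle, whose labels name no contractions, gave 8 arrays that are polysomal in title and description, here the polysomal control, and 4 whose titles say 1hr polysome but whose descriptions do not mention ribosomes, here the control titled 1hr polysome. Both control descriptions give 1 h. Each number in the titles (1 and 2, or 1 to 4) has 2 arrays, which were averaged to 1 replicate, so that the groups hold n = 2 or n = 4 and 18 replicates in all. Strain, sex and age are not given, nor is it said whether a number is an animal, so the p-values rest on a spread between samples that may be technical only.

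Signals are the authors' scaled intensities, with 2% trimmed means of 801.03 to 801.9 on every array. A floor of 129.5 was used, the 40th percentile over all arrays, to which lower values were raised, and levels of different probe sets are not comparable. The 9 skeletal muscle markers that could be tested were above the floor in every group. Adipocyte markers (4 tested), macrophage markers (8), endothelial markers (5) and red cell markers (2) were also measured, and Itgam of macrophages was the only marker at the floor on all arrays of a group, in 4 of the 6 groups. In whole muscle, fewer cells of a type and less RNA per cell cannot be told apart. The ratio of 3′ to 5′ actin signal, a measure of intact RNA, stood at 9.01 to 11.5 on the arrays of number 3 of the 6 h total group and at 1.01 to 4.48 on the others. For every member the fraction difference at 6 h is also given without that number.

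**Figure D1:**
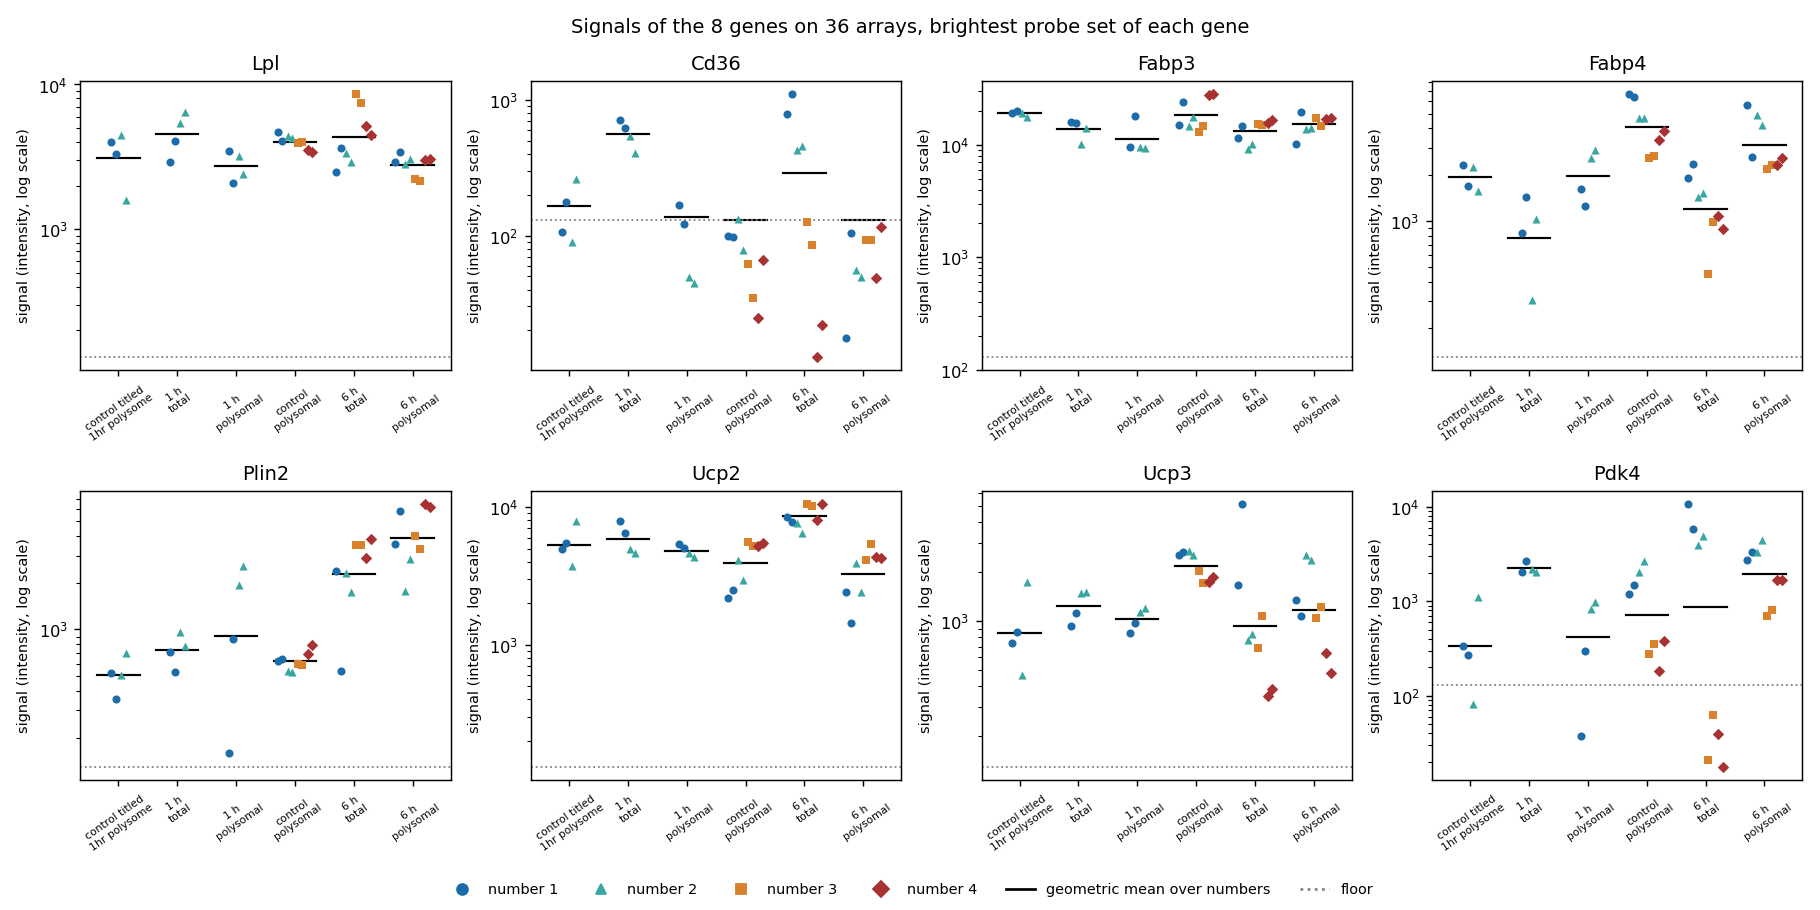
Signal of the brightest probe set of each of the 8 genes on every array (y axis, intensity on a log scale) in the 6 groups (x axis). Symbols mark the number in the title, bars the geometric mean over numbers after values under the floor were raised to it, and the dotted line the floor of 129.5. The 6 h polysomal Plin2 arrays, 1773 to 6493, all lie above those of the polysomal control, 532 to 798.

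Plin2, the droplet coat protein, was the member whose polysomal transcript was higher 6 h after exercise than in the polysomal control. Its signal at 6 h was 6.29 times that of the polysomal control, a log2 difference of 2.65 (SE 0.48, 95% interval 1.63 to 3.68, limma adjusted p = 0.0296). The description of that control gives 1 h, so exercise and time of sampling cannot be told apart here. The other 7 genes did not pass in this comparison, and their differences ran from 1.45 for Pdk4 to -0.90 for Ucp3. Of all 3903 genes tested, 0.384% were called, against 1 of the 8 members. The members were chosen with earlier results of these data known, so nothing is read from that count. The median log2 difference was -0.27 over the members and -0.04 over all genes, with 2 members above 0 and 6 below.

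In the polysomal control, Plin2 stood at 632, 536, 596 and 743 in numbers 1 to 4, a mean log2 signal of 9.28 ± 0.20 (SD, n = 4). In 6 h polysomal RNA it stood at 4543, 2240, 3637 and 6347, or 11.93 ± 0.63 (SD, n = 4). No exercised value reached down to the controls, and non-overlap of this kind was seen in 4.94% of all genes. The numbers of these groups deviate together, and paired by number the log2 differences were 2.84, 2.06, 2.61 and 3.09. With the number as a block in a fit of these 2 groups alone, the difference of 2.65 had SE 0.19 and an adjusted p of 0.0612, no longer past 0.05. The call was also lost when any number of the control, or number 1, 3 or 4 of the exercised group, was left out, with adjusted p from 0.0731 to 0.148 and differences of 2.42 to 2.74. Without number 2 of the exercised group the adjusted p was 0.0184. Against the other control, titled 1hr polysome, the difference was 2.95 (adjusted p = 0.0579).

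In 6 h total RNA, Plin2 read 1130, 2011, 3509 and 3325 in numbers 1 to 4, all above the polysomal control and overlapping with the polysomal values of that time. The arrays of number 1 parted, at 2371 and 539, and the lower lay within the 532 to 798 of the control arrays. Against that control, exercise, fraction and time of sampling cannot be told apart. Total RNA at 1 h read 618 and 868, below all of the 6 h values. That difference between times, in log2 units, was 1.63 (SE 0.59, adjusted p = 0.570). Without number 3 of the 6 h group it was 1.42. The 4 arrays of 1 h polysomal RNA spread from 158 and 872 for number 1 to 1950 and 2553 for number 2, so that 1 number was near control and the other near the 6 h level. The 6 h polysomal values exceeded both, by 2.11 (SE 0.59, adjusted p = 0.597). Without number 2 of the 1 h polysomal group that difference became 3.40 and passed, with adjusted p = 0.0308. Against its own control, titled 1hr polysome at 433 and 596, 1 h polysomal Plin2 differed by 0.84 (SE 0.68). The change of the polysomal response from 1 h to 6 h was 1.81 (SE 0.83, adjusted p = 1).

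The dimmer Plin2 probe set was at the floor on all 8 arrays of the polysomal control and above it on 6 of 8 arrays of 6 h polysomal RNA. Its 6 h signals were 210, 129.5 (the floor), 170 and 349. By the means after flooring, which raised values in both groups, they were 1.55-fold higher, with adjusted p = 0.474. The probe sets thus had the same sign, and the brighter alone passed. Macrophages also coat lipid droplets with Plin2. The summed signal of the 8 macrophage markers ran from 5713 to 17029 over the numbers of 6 h polysomal RNA and from 5078 to 7550 in the polysomal control, with Itgam above the floor on some arrays of each. In that list 0 of 8 were called and 3 of 8 had an unadjusted p under 0.05, against 5.92% of all genes. That of the 4 adipocyte markers ran from 4798 to 8127 and from 5708 to 8434, with 0 of 4 called and 0 under an unadjusted 0.05. Their part in the Plin2 result was not tested.

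**Figure D2:**
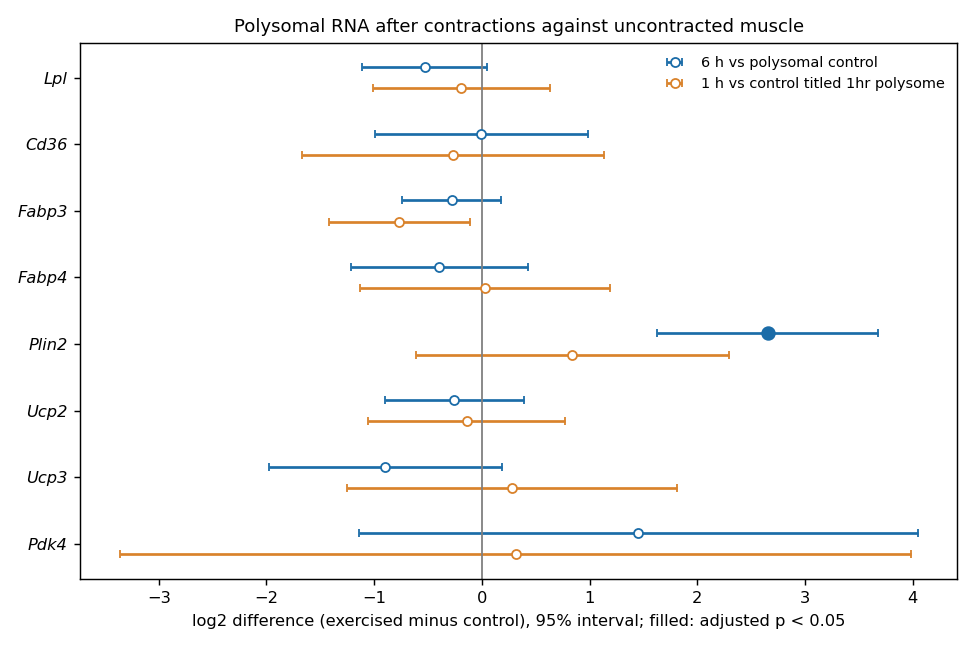
Log2 difference between exercised and control polysomal RNA (x axis) for the 8 genes (y axis), at 6 h against the polysomal control and at 1 h against the control titled 1hr polysome; bars are 95% intervals and filled points have an adjusted p under 0.05. Plin2 at 6 h, at 2.65, is the only filled point.

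The fatty acid uptake genes showed smaller differences. Lpl in 6 h polysomal RNA read 3146, 2929, 2177 and 3030 in numbers 1 to 4, and in the polysomal control 4382, 4328, 3978 and 3488. All 4 exercised values were below all 4 control values, at -0.53 on the log2 scale (SE 0.27, adjusted p = 0.983). Such non-overlap, in either direction, was seen in 4.94% of all genes and in 2 of the 8 members, Plin2 and Lpl. The other Lpl probe sets had the same sign, at -0.41 and -0.43, with overlapping groups. At 1 h, polysomal Lpl differed from its control by -0.19 (SE 0.39).

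Cd36 was at the floor on all 8 arrays of 6 h polysomal RNA and on 7 of 8 of the polysomal control, so no response on polysomes could be measured for it. The highest polysomal array of any exercised or polysomal control group read 168. Its 1 h arrays of total RNA read 716, 618, 545 and 407, well above the floor. The control titled 1hr polysome lay between, at 107, 177, 90.0 and 260. Total RNA at 1 h exceeded that control 3.36-fold, a difference of 1.75 (SE 0.66, adjusted p = 0.330), and by at least 4.67-fold on the other probe set (adjusted p = 0.260), where all control arrays were at the floor. Neither passed, against 0.0512% of all genes called in that comparison. The control is polysomal by title, so exercise and fraction cannot be told apart in it.

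The binding proteins did not pass after exercise either. Fabp3, the muscle form, had group means of 11183 to 19013. At 1 h its polysomal values were 13141 and 9516 against control values of 19644 and 18403, at -0.77 (SE 0.31, adjusted p = 1). At 6 h it read 14128, 13937, 15808 and 17085, within the 13754 to 27715 of the polysomal control. Fabp4, the adipocyte form, differed by -0.40 at 6 h (SE 0.38) and by 0.03 at 1 h (SE 0.54). The polysomal control and the control titled 1hr polysome differed by 1.10 for Fabp4 (SE 0.47, adjusted p = 0.890), so the choice of control turns the sign at 6 h, to 0.70, and at 1 h, to -1.07.

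Ucp2, the more widely expressed uncoupling protein, differed by -0.25 (SE 0.30, adjusted p = 1) on polysomes at 6 h. It was lower in each number, at -0.33, -0.18, -0.19 and -0.32, and with the number as a block in these 2 groups alone the SE was 0.05 (adjusted p = 0.203). The dimmer Ucp2 probe set had the other sign, 0.13 (SE 0.32). Ucp3, the muscle form, differed by -0.90 (SE 0.51, adjusted p = 1). Ucp3 read 1203, 2443, 1128 and 556 at 6 h against 2593, 2593, 1844 and 1792 in the polysomal control, lower in each number but with overlapping ranges. Its dimmer probe set gave -0.97 (SE 0.78). Against the control titled 1hr polysome, with values of 792 and 903, the sign turned, to 0.46. At 1 h the differences were -0.14 for Ucp2 (SE 0.43) and 0.28 for Ucp3 (SE 0.72), and the dimmer probe sets gave the other sign, at 0.09 and -0.03. Against the polysomal control the 1 h differences of the brighter probe sets turned as well, to 0.30 and -1.08, so that no direction can be given for either gene at 1 h.

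Pdk4, the switch away from glucose, was higher in each number of 6 h polysomal RNA than in the same number of the control, by 1.18, 0.71, 1.25 and 2.66 on the log2 scale. The mean difference of 1.45 had SE 1.22 and a 95% interval from -1.14 to 4.05 (adjusted p = 1). Its values were 3018, 3852, 742 and 1672 after exercise and 1332, 2347, 311 and 265 in the control. Numbers 1 and 2 were the highest in both groups, with log2 SDs of 1.06 after exercise and 1.55 in the control. With the number as a block in these 2 groups alone the SE was 0.36 and the adjusted p 0.255. Pdk4 in 1 h polysomal RNA read 197 and 893 against 302 and 378, a difference of 0.31 (SE 1.72), with 1 array of each group at the floor. Against the polysomal control that difference turned to -0.76.

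The counts that follow use the brightest probe set of each gene. In the 1 h comparison of polysomal RNA with its control, 0 members were called by limma, as were 0% of all genes, and 1 member, Fabp3, had an unadjusted p under 0.05, against 4.51% of all genes. Between the times, 0 members were called in total RNA (0.0256% of all genes) and 0 in polysomal RNA (0%), with 1 member under an unadjusted p of 0.05 in each, Plin2. The shares of all genes under that p were 7.51% and 6.07%. In total RNA the brightest Lpl probe set differed by -0.05 from 1 h to 6 h. The others differed by -1.10 and -1.28, with unadjusted limma p of 0.0239 and 0.0478 (adjusted 0.597 and 0.644). Between both control groups 0 members and 0% of all genes were called, with 2 members under an unadjusted 0.05, Fabp4 and Ucp3, and 5.97% of all genes. The control titled 1hr polysome against 1 h total RNA gave 0 members, with 2 under an unadjusted 0.05, against 11.1% of all genes. The dimmer Ucp2 and the second Lpl probe sets, higher in total RNA by 1.47 and 1.11, were also under an unadjusted 0.05 there. The differences of contrasts between 1 h and 6 h called 0 members and 0% of all genes each, with 0 members under an unadjusted 0.05 for the fraction difference (5.56% of all genes) and 1 for the polysomal response (2.77%). For the fraction difference the second Lpl probe set, at 1.44, was under an unadjusted 0.05.

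The comparison of polysomal with total RNA of exercised muscle asks which transcripts were over- or under-represented on ribosomes. No control group is titled as total RNA, so whether these differences also exist in uncontracted muscle cannot be told. At 6 h Fabp4 was higher and Ucp2 lower in the polysomal fraction, and the other 6 members did not pass. The share called was 9.38% of all genes, so 2 of 8 members is a count to be read against many calls. The median over the members was 0.27 and over all genes -0.14. In 2 members, and in 12.6% of all genes, the values of the fractions did not overlap.

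Fabp4 read 3848, 4549, 2245 and 2430 in 6 h polysomal RNA and 2115, 1470, 668 and 977 in 6 h total RNA, numbers 1 to 4. Every polysomal value was above every total value. The difference was 1.39 on the log2 scale, or 2.62-fold (SE 0.38, 95% interval 0.57 to 2.21, adjusted p = 0.0378). By number it was 0.86, 1.63, 1.75 and 1.32. The call was lost without number 2, 3 or 4 of the total group or any number of the polysomal group, at adjusted p of 0.0517 to 0.110, and kept without number 1 of the total group, at 0.0261. Without number 3 of the total group, with its high actin ratio, the difference was 1.11 (adjusted p = 0.0833). At 1 h Fabp4 again stood higher on polysomes, 1422 and 2716 against 1089 and 558, by 1.33 (SE 0.54, adjusted p = 0.246).

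Ucp2 read 1859, 3073, 4729 and 4290 in 6 h polysomal RNA and 8072, 7034, 10368 and 9236 in total RNA, so each polysomal value was below each total value. The difference was -1.39, or 2.62-fold lower (SE 0.30, 95% interval -2.03 to -0.74, adjusted p = 0.0141). By number it was -2.12, -1.19, -1.13 and -1.11. Leaving out any single number of either fraction kept this call, and without number 3 of the total group the difference was -1.30 (adjusted p = 0.0309). The second Ucp2 probe set had the same sign, -0.92 (SE 0.32), and did not pass (adjusted p = 0.0828), but passed without number 3 of the total group, at -1.25 (adjusted p = 0.0129). At 1 h the probe sets parted: the brighter gave -0.28 (SE 0.43) and the dimmer -1.38 (SE 0.45, adjusted p = 0.151). The change of the fraction difference between the times was -1.11 for the brighter (SE 0.52, adjusted p = 0.849) and had the other sign for the dimmer, at 0.46 (SE 0.55). Without number 3 these were -1.02 and 0.13.

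Cd36 was at or near the floor on polysomes and above it on some arrays of total RNA, so its differences depend on the floor. In 6 h total RNA it read 940 and 444 in numbers 1 and 2 and lay at the floor in numbers 3 and 4. By the means after flooring it was 2.23-fold lower on polysomes at 6 h (log2 -1.16, SE 0.46, adjusted p = 0.127). Values of both fractions were raised to the floor there, so this is not a bound. Without number 3 or 4 of the total group the difference became -1.55 and passed, at adjusted p of 0.0455 and 0.0303. At 1 h the difference was -2.02 (SE 0.66, adjusted p = 0.152), with total values of 665 and 471 against 148 and the floor. The second probe set gave 2.48-fold after flooring at 6 h and at least 4.67-fold at 1 h, with adjusted p of 0.114 and 0.150. At 1 h the comparison called 0.333% of all genes and 0 members, with 2 members under an unadjusted 0.05 by their brightest probe sets, Cd36 and Fabp4, against 15.6% of all genes. The dimmer Ucp2 probe set (-1.38) and the second Lpl probe set (-1.49) were also under an unadjusted 0.05.

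**Figure D3:**
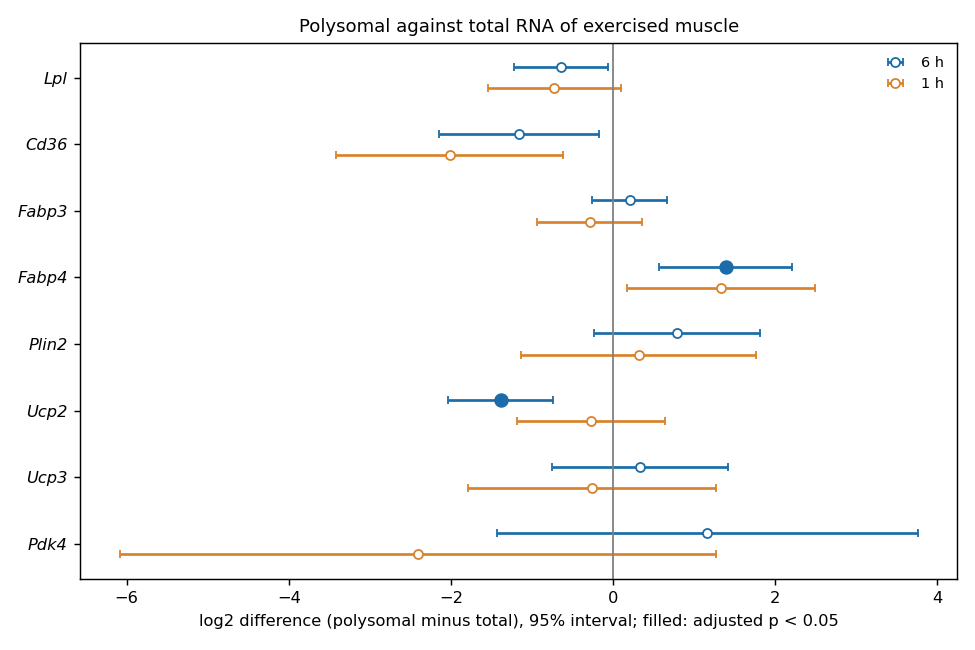
Log2 difference between polysomal and total RNA of exercised muscle (x axis) for the 8 genes (y axis) at 6 h and 1 h; bars are 95% intervals and filled points have an adjusted p under 0.05. Fabp4 at 1.39 and Ucp2 at -1.39 are filled at 6 h, and no point is filled at 1 h.

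The remaining members did not pass between fractions. Plin2 was higher on polysomes in each number at 6 h, by 2.01, 0.16, 0.05 and 0.93, with a mean of 0.79 (SE 0.48, adjusted p = 0.310). Without number 3 of the total group it was 1.00 (adjusted p = 0.248). Fabp3 differed by 0.20 (SE 0.22) and Ucp3 by 0.33 (SE 0.51), and without number 3 by 0.27 and 0.29. The dimmer Ucp3 probe set, with 3 of 8 total arrays at the floor, changed sign, from 0.29 to -0.22. For Pdk4 only a bound can be given at 6 h, since all arrays of numbers 3 and 4 of total RNA were at the floor. Its mean was at least 1.16 higher on polysomes (adjusted p = 0.559), and at least 0.24 higher without number 3 (adjusted p = 0.937). At 1 h its total values were 2346 and 2114, and its polysomal values, 197 and 893, were both lower, at -2.41 (SE 1.72) with 1 polysomal array at the floor. The change between times was not past the threshold (adjusted p = 0.849).

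The actin ratio moved with the fraction. It was 2.54 to 4.48 in 6 h polysomal RNA and 1.01 to 1.58 in 6 h total RNA without number 3. At 1 h it reached 4.28 in polysomal and 1.62 in total RNA. Its part in the fraction differences of Fabp4, Ucp2 and Cd36 was not tested. Adipocytes and macrophages are both main sources of Fabp4. Summed adipocyte markers ran from 4798 to 8127 in polysomal and from 5749 to 9040 in total RNA at 6 h, with 0 of 4 called, 1 under an unadjusted 0.05, none at the floor and a median difference of -0.07. Summed macrophage markers ran from 5713 to 17029 in polysomal and from 4228 to 7376 in total RNA, with Itgam at the floor on all total arrays and a median difference of 0.09. In that list 0 of 8 were called and 3 of 8 had an unadjusted p under 0.05, against 26.2% of all genes. Endothelial markers had a median difference of -0.29, with 0 of 5 called and 0 under an unadjusted 0.05. Of the skeletal muscle markers 1 of 9 was lower on polysomes, the slow myosin gene Myh7, and 0 of 2 red cell markers were called, with 0 under an unadjusted 0.05. The part of these cell types in the Fabp4 result was not tested.

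For Lpl the 3 probe sets did not agree in total RNA. The brightest read 2996, 3126, 7988 and 4823 in numbers 1 to 4 of 6 h total RNA. The second read 4626, 4934, 1338 and 2532, and the third 3456, 3936, 1219 and 772. Numbers 3 and 4 were thus the highest on the brightest probe set and the lowest on the others. The polysomal minus total difference at 6 h was -0.64 (SE 0.27, adjusted p = 0.146), -0.05 (SE 0.36) and 0.66 (SE 0.48), and without number 3 it was -0.35, -0.43 and 0.45. Across the 18 replicates the others had Pearson correlations of 0.09 and -0.14 with the brightest, whereas those of Cd36 reached 0.99, Ucp3 0.83, Plin2 0.70 and Ucp2 0.46. The second Cd36 and Plin2 probe sets were above the floor on 8 and 11 of 36 arrays, so their correlations rest on few replicates. The direction for Lpl between fractions at 6 h thus depended on the probe set, with and without number 3. Number 3 carries the high actin ratio, while the arrays of number 4 stood at 1.25 and 1.09. The part of that ratio in the Lpl signals was not tested. At 1 h all 3 were lower on polysomes, by -0.72, -1.49 and -0.94, with no overlap, as in 48.7% of all genes, and adjusted p of 0.386, 0.164 and 0.578.

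**Figure D4:**
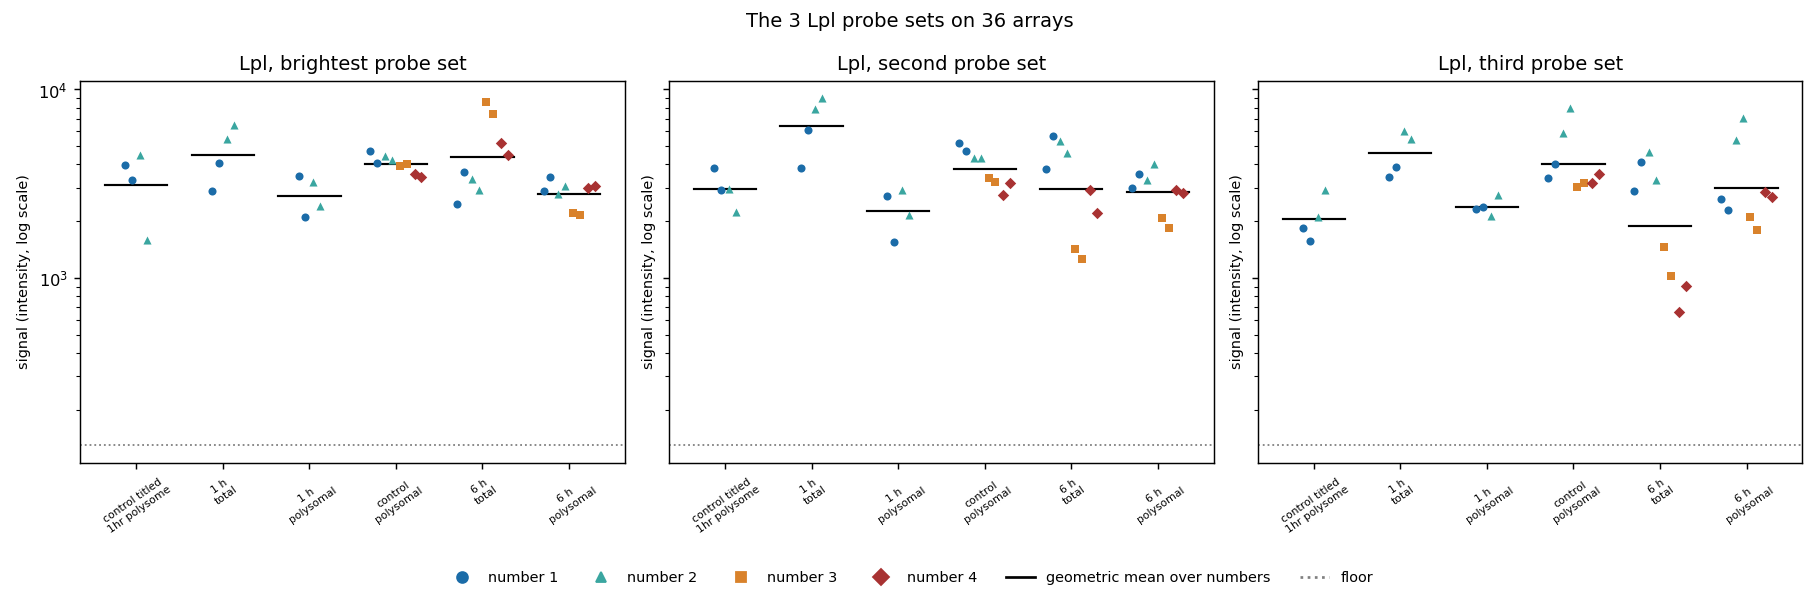
Signal of the 3 Lpl probe sets on every array (y axis, intensity on a log scale) in the 6 groups (x axis); symbols mark the number and bars the geometric mean over numbers. In 6 h total RNA, numbers 3 and 4 lie above numbers 1 and 2 on the brightest probe set and below them on the other 2.

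Within the 6 h sets and the polysomal control, numbers 1 and 2 stood apart from numbers 3 and 4 for several members. The titles of these numbers are written differently, since numbers 3 and 4 carry the letter a for the first array and numbers 1 and 2 do not, and what this marks is not given. Pdk4 was high in numbers 1 and 2 of all 3 groups. Its means were 1768 against 287 in the polysomal control, 3409 against 1113 in 6 h polysomal RNA, and 5875 against the floor in 6 h total RNA, where the arrays of numbers 3 and 4 read 17.6 to 62.9. These are ratios of 6.16, 3.06 and at least 45.4, with no overlap. The polysomal minus total difference of Pdk4 was therefore -1.39 and -0.18 in numbers 1 and 2 and at least 2.52 and 3.69 in numbers 3 and 4. The brightest Lpl probe set in the control and 6 h total RNA, and Fabp3 in both 6 h groups, did not overlap either. Here and in what follows, 2 numbers against 2 part easily, and the share of all genes that do so was not counted.

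Cd36 in 6 h total RNA was 646 in numbers 1 and 2 and at the floor in numbers 3 and 4, at least 4.99-fold apart. The dimmer Ucp3 probe set was 1549 against 146 there, with 3 of its arrays at the floor. Fabp4 was higher in numbers 1 and 2 in all 3 groups, 5525 against 3061, 1763 against 808 and 4184 against 2336 in the control, 6 h total and 6 h polysomal RNA. The brighter Ucp2 probe set ran the other way in all 3, with 2855 against 5368, 7535 against 9786 and 2390 against 4504. The dimmer one did not follow it: it read 1758 against 754 in 6 h total RNA, the opposite order with no overlap, and overlapped in the control (515 against 605) and in 6 h polysomal RNA (645 against 576). Plin2 also ran the other way, in 6 h total RNA, at 1508 against 3416. The Plin2 response was 2.45 in numbers 1 and 2 and 2.85 in numbers 3 and 4, the Fabp4 fraction difference 1.25 and 1.53, and that of Ucp2 -1.66 and -1.12. In fits of 2 numbers alone, which hold fewer samples, Plin2 and Fabp4 passed in neither. Ucp2 passed there in numbers 1 and 2 and not in numbers 3 and 4. With the title form as a block the limma adjusted p was 0.0160 for Plin2, 0.00382 for Fabp4 and 0.00136 for Ucp2. That block and the fits of 2 numbers were chosen after seeing the data, and the part of the title form was not tested.

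**Figure D5:**
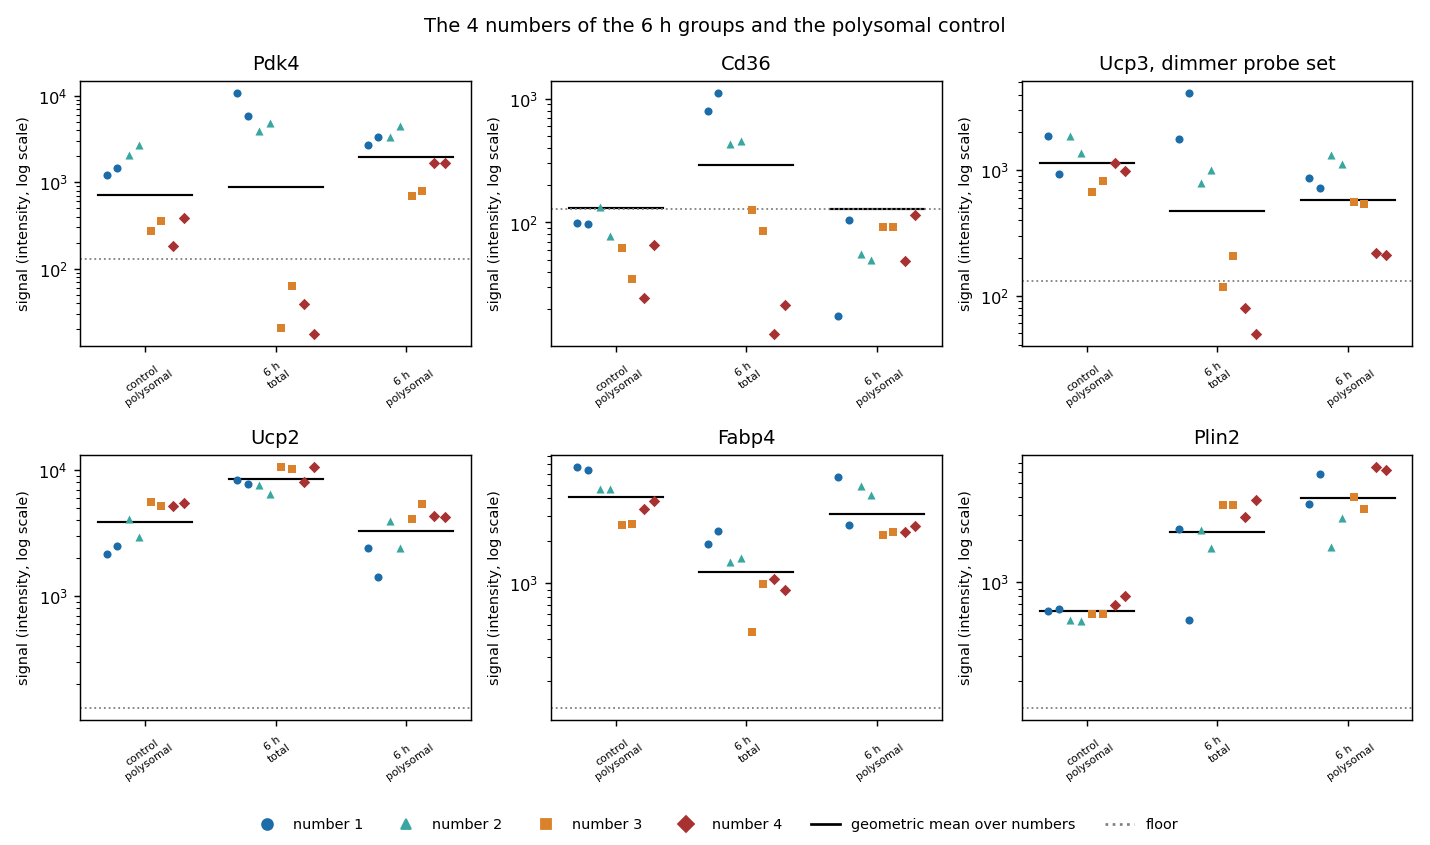
Signal on each array (y axis, intensity on a log scale) of Pdk4, Cd36, the dimmer Ucp3 probe set, Ucp2, Fabp4 and Plin2 in the polysomal control and the 6 h groups (x axis), by number; bars are geometric means and the dotted line is the floor. Numbers 1 and 2 lie above numbers 3 and 4 for Pdk4 in all 3 groups, and the brighter Ucp2 probe set shows the opposite order.

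Among themselves the members did not form 1 pattern. Over the 18 replicates, which share arrays with the comparisons above, the highest Pearson correlations were 0.56 between Cd36 and Pdk4 and 0.56 between Fabp4 and Ucp3, and the lowest was -0.74 between Fabp4 and Ucp2. The genes most like Plin2 over those replicates were P2rx5 (0.94), Neurl3 (0.93) and Rrad (0.92). Cd36 was most like Cav1 (0.98), which codes for the caveolar coat protein, Ndufs1 (0.97) of respiratory complex I and LOC102546572 (0.97). Cd36 was above the floor on 12 of 36 arrays, so these values rest on few replicates against many at or near the floor. Fabp4 was most like Prdx1, Ttc3 and Itga1 (0.88 to 0.89), Ucp2 like Cyp2a1, Tle5 and Th (0.85 to 0.88), and Pdk4 like Csnk1a1, Top1 and Serpine2 (0.85 to 0.89). The highest values were lower for Lpl (Bag6, Cyp2d4 and Cacna1e, 0.78 to 0.80), Fabp3 (Tst, Tnni2 and Cby1, 0.74 to 0.81) and Ucp3 (Cnppd1, Synj2 and Sult1a1, 0.77 to 0.83).

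Among the other genes of these pathways, 9 of 75 passed between fractions at 6 h and 0 by limma in the other 9 comparisons, which had 4 to 18 under an unadjusted p of 0.05 each. The 9 genes are 12% of the lists, near the 9.38% of all genes called there, and nothing particular to these lists is read from it. Of the fatty acid uptake, transport and activation list, 2 of 16 tested were higher on polysomes, Dbi, an acyl-CoA binding protein, by 1.42 (SE 0.34, adjusted p = 0.0217), and Fabp5, another fatty acid binding protein, by 1.27 (SE 0.34, adjusted p = 0.0327). Its median was -0.01, against -0.14 over all genes. Of the synthesis, storage and lipolysis list, 1 of 16 was higher, the monoglyceride lipase Mgll, by 1.46 (SE 0.20, adjusted p = 0.00167). In that list 1 was lower, Gpam, which starts glycerolipid synthesis, at -0.72 with all polysomal arrays at the floor (adjusted p = 0.00646). Of the list for entry of pyruvate and fatty acids into mitochondria, 1 of 24 was higher, the pyruvate dehydrogenase phosphatase subunit Pdp2, which acts against the Pdk enzymes, by 0.82 (adjusted p = 0.0258). In the same list Dlat, a core subunit of pyruvate dehydrogenase, was lower on polysomes, at -0.93 (adjusted p = 0.0226), as was hexokinase 1 (Hk1) at -0.96 (adjusted p = 0.0478). The other probe sets of Gpam, Dlat and Hk1 had the same sign and did not pass, with limma adjusted p of 0.171 to 0.760. Of 19 regulators, the glucocorticoid receptor Nr3c1 was higher by 1.85 (adjusted p = 0.00403), while its other probe set had the other sign, at -0.16 (adjusted p = 0.515), and the liver X receptor Nr1h2 by 1.18 (adjusted p = 0.00657). Without number 3 of the total group 8 of the 9 passed and all 9 kept their sign, and the call of Hk1 was lost, at -0.72 (adjusted p = 0.0980).

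Between exercised and control polysomal RNA at 6 h, 0 of the 75 genes in these 4 lists were called by limma, with 4 under an unadjusted p of 0.05, against 5.92% of all genes. The smallest p values belonged to the nuclear receptor Nr4a3 at 1.89 (SE 0.45, adjusted p = 0.123), the glucose transporter Slc2a1 at 1.86 (SE 0.53, adjusted p = 0.229) and hexokinase 2 (Hk2) at 1.31 (SE 0.41, adjusted p = 0.340). List medians there were -0.07, -0.04, -0.24 and -0.08 for uptake, storage, mitochondrial entry and regulators, against -0.04 over all genes. Between polysomal and total RNA at 1 h, Cav1 stood at -2.94 (SE 0.94, adjusted p = 0.150) and the lipogenic regulator Srebf1 at -1.88 (SE 0.42, adjusted p = 0.0680), neither past the threshold. The polysomal log2 mean of Cav1 was 7.12, near the floor.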

How the data were processed

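The authors deposited linear intensity values, 1 per probe set for each of the 36 arrays. The software, background correction and summary method are not given in the sources used here. Their scaling was kept, and 59 control probe sets were left out. Signals were floored at their 40th percentile and log2 was taken, and 6707 probe sets above it on at least 4 arrays were tested. A gene was represented by its brightest tested probe set (3903 genes). Symbols came from the platform annotation, updated through Entrez identifiers: 1 symbol was found for 7006 probe sets, while 308 with several and 1426 without any were not named.

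The 2 arrays of a number were averaged. Their correlation over probe sets was 0.914 to 0.984, and that of other pairs 0.819 to 0.979. A single limma 3.58.1 model of the 6 groups in R 4.3.3 gave the 10 comparisons (lmFit, contrasts.fit, eBayes; two-sided, 12 residual degrees of freedom), p-values being adjusted over all 6707 probe sets by Benjamini-Hochberg and called under 0.05. The procedure was tested on simulated data. The number of arrays limits the precision.

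The numbers pair the 6 h polysomal group with the polysomal control: deviations from the group means correlated at 0.431 to 0.538, each number best with its own. Between 6 h polysomal and total RNA the range was 0.07 to 0.248, with 3 of 4 numbers best with their own. These values cannot decide whether both fractions came from the same muscles.

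The members, lists and markers were chosen with earlier results of these data known. The rule for named genes took all 8 members, the 3 genes most correlated with each, and from each pathway list the called genes or at most the 3 with the smallest p. The alternatives were other scalings, floors, filters, blocks, control groups and probe sets and left-out numbers. Each promoter motif was counted in the 250 bases before the start.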

Additional observations from a re-analysis of the deposited data

Results flagged for a closer look

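The log2 signal of Cd36 in number 2 of the polysomal control was 7.041, while the other 3 numbers of that group were at the floor of 7.017. It is set apart only because the others were raised to 1 value, beside which any signal above the floor stands apart, and it rests on 1 array at 133.8 against a floor of 129.5. It was the 1 group of this kind among 38 tested, and about 1 in 20 groups would be by chance.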

How the results depend on the processing

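The call of Plin2 on polysomes at 6 h, 1 of 8 members, became 0 without the filter on low signals (adjusted p = 0.108), with the other control group (titled 1hr polysome), with numbers 1 and 2 alone, with numbers 3 and 4 alone, and with the replicate block in 2 groups alone (adjusted p = 0.0612). Leaving out 1 number gave 0 to 1. On its brightest probe set the difference kept its sign in 21 of 21 alternatives, at 2.42 to 2.95, and passed in 9; on the other it was 0.63. Between fractions at 6 h, 2 members became 1 without the filter and 0 with numbers 3 and 4 alone, and leaving out 1 number gave 1 to 2. The count was 3 with single arrays and the number as a random block, where Cd36 joined Fabp4 and Ucp2. Without number 3 or 4 of the total group, and with numbers 1 and 2 alone, the 2 members were Ucp2 and Cd36 in place of Fabp4. Ucp2 passed in 18 of 19 alternatives on its brightest probe set and Fabp4 in 9 of 19. With single arrays and the number as a random block, 1 member, Cd36, passed between fractions at 1 h (adjusted p = 0.00981) and 1, again Cd36, between the control titled 1hr polysome and 1 h total RNA (adjusted p = 0.0458). Between the polysomal times, leaving out 1 number gave 0 to 1, the 1 being Plin2. The replicate block over all groups gave 1 member on polysomes at 6 h and 2 between fractions, and changed no other call. Over all genes, 15 called on polysomes at 6 h became 0 to 67 and 366 called between fractions 42 to 631. The cause of these changes was not tested, apart from leave-one-out fits and fits of 2 numbers, which hold fewer samples, and the unfiltered fit, which tests more probe sets. The fits of 2 numbers, the title form block, the block in 2 groups and the pathway genes without number 3 of 6 h total RNA were chosen after seeing the data. Among the members, the floor limits Cd36, the dimmer Plin2 probe set and, where 6 h total RNA enters, Pdk4 and the dimmer Ucp3 probe set. Their differences are bounds only where values on 1 side alone were raised to it.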
